A study of Homo sapiens with 18 samples.

Results

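The transcriptional response to doxorubicin (DXR) was described in RPE-1 cells that carried a control siRNA. RPE-1 is a human retinal pigment epithelial line immortalized with hTERT. The comparison set 3 libraries of siControl cells given DXR against 3 libraries of siControl cells left untreated, that is 6 of the 18 libraries of the series, chosen by their labels. All groups carry an siRNA in their labels. The labels' protocol gives 2 days of transfection, stated for the MondoA and Mlx siRNAs, and then DXR at 150 ng/ml for 3 days. The untreated libraries are thus also labelled siControl. The other 12 libraries came from cells given an siRNA against MondoA (gene MLXIP) or Mlx (gene MLX), with DXR or untreated, 3 libraries each. Library names carry the tag D5 in DXR groups and D0 in untreated groups. The labels do not explain these tags, and DXR and a later harvest cannot be told apart. Whether replicates were cultured separately is not in the labels, so the p-values cover the spread among libraries, which may be technical.

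DXR is an anthracycline that traps topoisomerase II on DNA and leaves double-strand breaks. Breaks activate the kinases that stabilise p53, a transcription factor whose targets include the CDK inhibitor p21 (gene CDKN1A). With CDKs inhibited, RB-family proteins and the DREAM complex repress genes of DNA replication and mitosis, which carry E2F and CHR elements in their promoters. Cells that stay arrested can become senescent, a state known for loss of lamin B1 and for a secretory programme, and damaged or cytosolic DNA can engage the interferon pathway.

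Total counts were 20534767, 19976467 and 21858817 in the DXR libraries and 29219280, 19305200 and 26710438 in the untreated libraries. Of 33121 listed genes, 13676 had enough counts to be tested. Levels are given in CPM (counts per 1000000 counts after TMM scaling) per library in the order of replicates 1, 2 and 3. Levels of different genes are set side by side only in RPKM, which divides by gene length. RPKM was taken as deposited, without TMM scaling, so its ratios between groups differ slightly from the fitted fold changes. A gene was called where the edgeR quasi-likelihood test gave a Benjamini-Hochberg adjusted p under 0.05, and SE stands for the standard error of a fitted log2 value. Among cell type markers, the keratins KRT8 and KRT18 (284.9 and 301.8 RPKM with DXR, 152 and 178 RPKM untreated) and the factors OTX2 and MITF were expressed. OTX2 was lower with DXR, at 5.42 RPKM against 8.93 RPKM untreated, and MITF was at 5.07 RPKM with DXR and 5.44 RPKM untreated. Of the 6 tested pigment epithelium markers 3 rose and 1, OTX2, fell. Markers of mature pigment epithelium were low, with at most 6 counts of RPE65, 4 of RLBP1, 3 of TYR and 22 of BEST1 in a library. Of these low markers TYRP1, a pigment enzyme, rose, with 20, 24 and 23 counts with DXR and 8, 0 and 1 counts untreated (log2 3.21, SE 0.60, and 5.36 without untreated replicate 1). Blood markers were low too, with HBB and HBA1 at 0 in all 6 libraries and 11 to 35 counts of PTPRC. Endothelial markers summed to 5.01 to 5.30 CPM with DXR and 4.98 to 6.20 CPM untreated, where VWF (log2 1.24, SE 0.28) and TEK rose, KDR fell (log2 -1.12, SE 0.22) and PECAM1 had at most 12 counts. Fibroblast genes were present in both groups and did not move together. THY1 was at 189 RPKM with DXR and 116 RPKM untreated. The receptor genes PDGFRB and PDGFRA were lower with DXR, PDGFRB at 13 RPKM against 18.1 RPKM untreated and PDGFRA at 1.36 RPKM against 2.16 RPKM untreated.

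Changes with DXR were widespread and mostly small. In the DXR libraries 3841 genes were raised (28.1% of those tested) and 3915 lowered (28.6%) against untreated, together 7756 genes or 56.7%. With a background this high, counts of called genes are given beside the sizes of their changes. In all, 1679 of the raised and 2244 of the lowered genes moved by less than 0.5 on the log2 scale. At least 2-fold changes were more often rises, with 1070 genes raised (7.82%) and 623 lowered (4.56%). Rises of 3 or more on the log2 scale numbered 112, against 8 falls of that size. The median log2 fold change of all tested genes was -0.01.

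**Figure D1:**
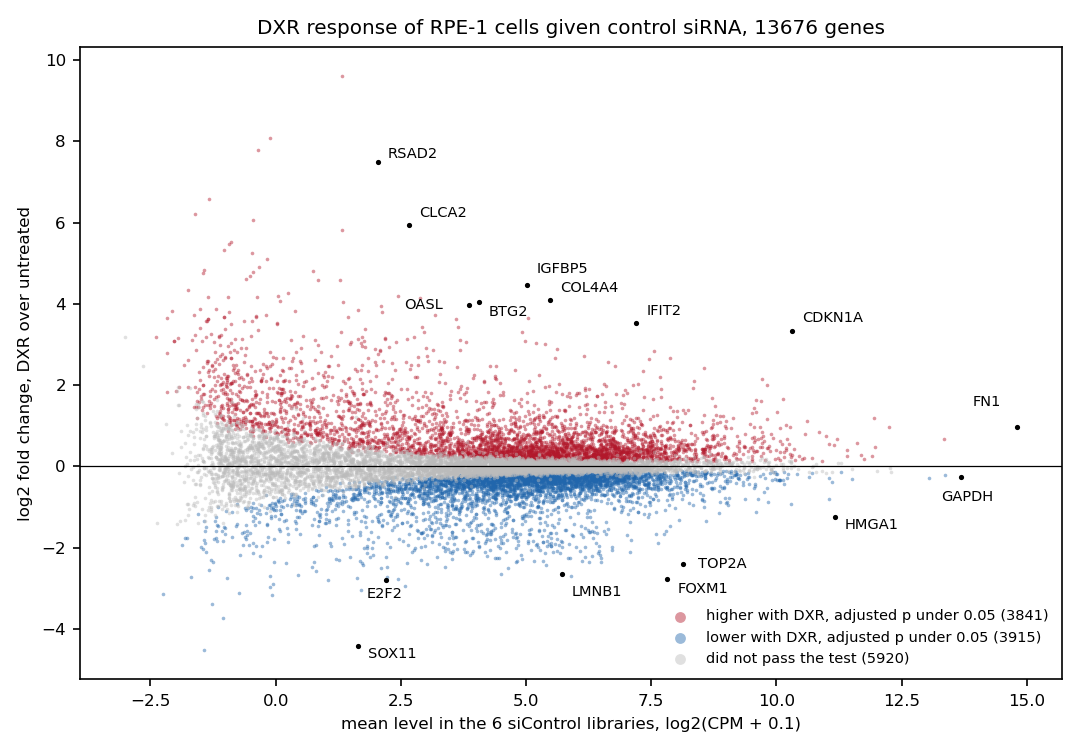
Log2 fold change (DXR over untreated, y axis) of each tested gene against its mean level in the 6 siControl libraries (x axis, log2 of CPM plus 0.1), with 3841 genes raised, 3915 lowered and the others not passing the test. The upper arm reaches further than the lower one, and fitted values of genes with almost no untreated counts, at the upper left, depend on the model's prior count.

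Targets of p53 rose in their majority. Of 18 tested p53 targets that act in arrest and growth control, 15 rose and 2 fell, with a median log2 fold change of 1.06. CDKN1A, which encodes p21 (chromosome 6, 36676460 to 36687339, plus strand, GENCODE 29 on GRCh38), stood at 2079, 2534 and 2322 CPM with DXR and at 223, 220.0 and 241 CPM untreated. These groups lay far apart, and the log2 fold change was 3.34 (SE 0.08, adjusted p = 6.33e-16). At 929 RPKM with DXR against 97.6 RPKM untreated, CDKN1A was also one of the 5 genes with the largest gain in RPKM. BTG2, an antiproliferative gene, had 30.3, 32.3 and 31.2 CPM with DXR against 1.97, 1.94 and 1.77 CPM untreated, a log2 fold change of 4.04 (SE 0.13, adjusted p = 6.01e-14). CYFIP2, a p53-induced gene of the WAVE complex family, rose by 3.65 (SE 0.14), TP53INP1, a stress-induced cofactor of p53, by 2.04 (SE 0.10) and PHLDA3, an inhibitor of AKT, by 1.35 (SE 0.06). The 2 members that fell were PLK1, a mitotic kinase (log2 -2.09, SE 0.16), and E2F7, a repressor of E2F genes (log2 -0.46, SE 0.11). GDF15, a secreted p53 target, was too low to test, with 5, 3 and 2 counts with DXR and 3, 1 and 2 counts untreated. Its ratio of DXR to untreated was 2.15 with a 95% counting interval of 0.706 to 7.18.

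Targets that repair DNA or serve metabolism rose in 12 of 14 cases with none lower (median 1.16). RRM2B, the p53-driven subunit of ribonucleotide reductase, measured 139, 145 and 141 CPM with DXR and 44.2, 39.7 and 39.9 CPM untreated (log2 1.78, SE 0.06, adjusted p = 6.43e-14). FDXR, a mitochondrial ferredoxin reductase, rose by 2.21 (SE 0.12). TIGAR, which lowers glycolytic flux, rose by 1.80 (SE 0.09), and SPATA18, a gene of mitochondrial quality control, by 4.15 (SE 0.27). All of these separated the 2 groups without overlap.

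Of 11 tested genes that feed back on p53, 8 rose and none fell (median 0.88). MDM2, the ubiquitin ligase that degrades p53, had 327, 366 and 335 CPM with DXR against 130.0, 117 and 125 CPM untreated (log2 1.46, SE 0.07, adjusted p = 9.44e-12). ZMAT3, an RNA-binding p53 target, rose by 1.38 (SE 0.08) and CCNG1, cyclin G1, by 0.89 (SE 0.08). TRIM22, counted in this list and among interferon-stimulated genes, rose by 2.46 (SE 0.16). Among p53 targets of apoptosis, 11 of 14 rose and 1 fell (median 0.74). The death receptors FAS (log2 1.74, SE 0.07) and TNFRSF10B (log2 1.09, SE 0.05), the nuclease gene AEN (log2 1.19, SE 0.06) and the BH3-only gene BBC3 (log2 2.71, SE 0.16) rose. APAF1, the apoptosome scaffold, was the member that fell, by 0.16 (SE 0.06, adjusted p = 0.0274), and it did not pass with DESeq2, in a fit of the 6 libraries alone, without the filter on low counts, or without untreated replicate 1 or DXR replicate 1 or 2.

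Across the BCL2 family, which sets the threshold for apoptosis, 12 of 17 tested genes rose and 4 fell (median 0.33). The pore-forming BAX and BAK1 rose by 0.65 (SE 0.05) and 0.58 (SE 0.06). PMAIP1, which encodes NOXA, stood at 46.7, 34.9 and 40.5 CPM with DXR against 18.4, 15.4 and 18.3 CPM untreated (log2 1.22, SE 0.16, adjusted p = 2.09e-06). In the other direction, the anti-apoptotic gene BCL2 was at 3.31, 3.02 and 3.40 CPM with DXR and at 10.0, 11.2 and 11.7 CPM untreated (log2 -1.75, SE 0.14, adjusted p = 4.76e-09). The BH3-only genes BMF (log2 -1.40, SE 0.09) and BCL2L11, which encodes BIM (log2 -1.47, SE 0.20), fell as well. Of the other anti-apoptotic genes, BCL2L1 and MCL1 rose by 0.52 (SE 0.07) and 0.28 (SE 0.06), named after their values were seen.

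**Figure D2:**
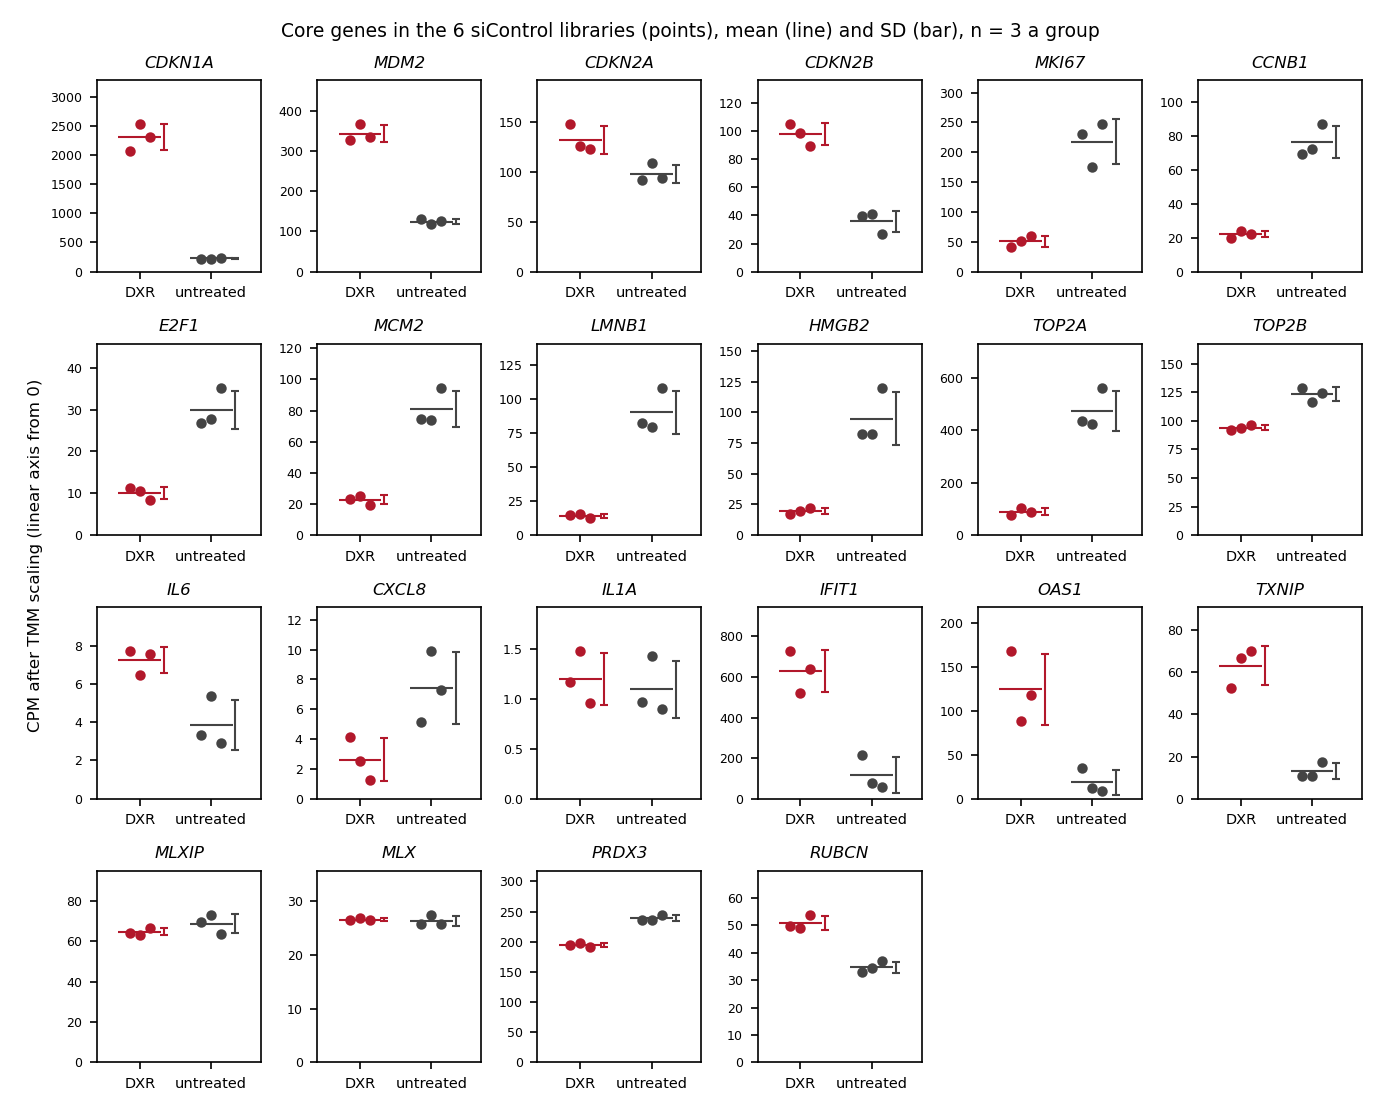
CPM (y axes, linear from 0) of core genes, 1 panel a gene, in each siControl library, with DXR libraries left and untreated libraries right in every panel; lines are means and bars are SD of 3 libraries. CDKN1A, MDM2, CDKN2B and TXNIP stand higher with DXR, the proliferation genes from MKI67 to TOP2A lower, and IL1A, MLXIP and MLX overlap.

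Proliferation markers and most cyclins and CDKs fell. In bulk libraries such as these, fewer cells of a type and less RNA per cell cannot be told apart. MKI67, the proliferation marker Ki-67, had 41.3, 50.8 and 59.6 CPM with DXR against 231, 176 and 247 CPM untreated (log2 -2.11, SE 0.33, adjusted p = 1.75e-05). Among 13 cyclins and CDKs, 8 fell and 4 rose (median -0.72). CCNA2 (cyclin A2) was at 28.2, 34.7 and 26.1 CPM with DXR and at 137, 132 and 183 CPM untreated (log2 -2.35, SE 0.17, adjusted p = 1.33e-09). CCNB1 and CCNB2, the mitotic B cyclins, had log2 fold changes of -1.79 (SE 0.13) and -2.34 (SE 0.16). The D-type cyclins rose: CCND1 measured 2111, 2340.1 and 2644 CPM with DXR and 1328, 1284 and 1341 CPM untreated (log2 0.84, SE 0.10, adjusted p = 9.09e-07). CCND3 rose by 0.46 (SE 0.07) and their partner CDK6 by 0.50 (SE 0.06), while CDK4 fell by 0.72 (SE 0.07).

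Of the 6 tested CDK inhibitor genes, 3 rose and 3 fell. CDKN1A (above), CDKN2B and CDKN2A rose, and CDKN2C, CDKN2D and CDKN1B fell. CDKN2B, which encodes p15, had 105, 99 and 89.6 CPM with DXR against 39.3, 40.8 and 27.1 CPM untreated (log2 1.46, SE 0.17, adjusted p = 7.72e-07). CDKN2A, the locus of p16 and ARF, had 148, 126 and 122 CPM with DXR against 91.9, 109 and 93.6 CPM untreated (log2 0.43, SE 0.11, adjusted p = 0.00333). Both separated the groups, CDKN2A by a narrow margin, and gene-level counts do not part p16 from ARF. CDKN2C (p18) fell most of the 6, at 13, 13.5 and 12.8 CPM with DXR against 59.7, 68.8 and 83.5 CPM untreated (log2 -2.43, SE 0.14, adjusted p = 5.28e-11).

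Of 20 tested E2F, pocket protein and DREAM genes, 16 fell and 2 rose (median -0.56). FOXM1, the driver of the mitotic programme, stood at 55.1, 61.7 and 56.7 CPM with DXR against 347, 377 and 461 CPM untreated (log2 -2.77, SE 0.14, adjusted p = 1.08e-11). E2F1 fell by 1.56 (SE 0.16), E2F2 by 2.80 (SE 0.33), MYBL2 (B-MYB) by 1.98 (SE 0.14) and RBL1 (p107) by 1.82 (SE 0.15). The 2 that rose were E2F5, a repressor-type E2F (log2 0.78, SE 0.22), and TFDP2, a dimerization partner (log2 0.24, SE 0.08). TFDP2 did not pass without untreated replicate 1 or 2, without DXR replicate 3 or without the filter on low counts.

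Genes of DNA replication fell in 47 of 51 tested cases and rose in none, with a median of -1.42. Of the 47, 37 fell by at least 2-fold, where 4.56% of all tested genes did. MCM2, a subunit of the replicative helicase, had 23.2, 25.3 and 19.6 CPM with DXR and 74.5, 74.0 and 94.6 CPM untreated (log2 -1.84, SE 0.17, adjusted p = 2.24e-08). Its helicase partners MCM3, MCM4, MCM6 and MCM7 had log2 fold changes of -1.63, -1.54, -1.71 and -2.06 (SE 0.11 to 0.14). UHRF1, which maintains DNA methylation at forks, fell by 1.73 (SE 0.10), and PRIM1, the primase subunit, by 2.93 (SE 0.31). The 4 that did not pass were ORC3 (log2 -0.09), ORC4 (log2 -0.07), RFC1 (log2 -0.01) and PCNA (log2 -0.25, SE 0.13), named here after their values were seen. Enzymes of deoxynucleotide supply fell in 8 of 12 cases (median -1.11), among them TK1, thymidine kinase (log2 -2.13, SE 0.11), and RRM2 (log2 -1.88, SE 0.19). RRM2, the cycling subunit of ribonucleotide reductase, and RRM2B, its p53-driven counterpart, moved in opposite directions: RRM2 was at 23.6 RPKM with DXR and 92.9 RPKM untreated, and RRM2B at 26.3 RPKM with DXR and 8.14 RPKM untreated. SAMHD1, which degrades deoxynucleotides, rose by 1.42 (SE 0.22).

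Nearly all tested mitotic genes fell. Of 33 tested mitotic entry and kinase genes, 32 fell, 30 of them at least 2-fold (median -1.82). CDC20, an activator of the anaphase-promoting complex, had 26.3, 32.6 and 26.4 CPM with DXR against 120.0, 121 and 154 CPM untreated (log2 -2.21, SE 0.16, adjusted p = 1.39e-09). PTTG1 (securin), the CDK-activating phosphatase CDC25B and the checkpoint gene MAD2L1 fell by 2.07, 2.18 and 1.85 (SE 0.12 to 0.15). All 39 tested kinetochore and centromere genes fell (median -1.63), with NUF2 of the NDC80 complex at 6.78, 7.42 and 7.96 CPM with DXR and 39.3, 37.5 and 49.2 CPM untreated (log2 -2.51, SE 0.20, adjusted p = 3.07e-09). All 23 tested genes of a list of kinesins and condensins, which also holds RACGAP1, NUSAP1 and TOP2A, fell as well (median -1.86), including the motor gene KIF20A (log2 -2.22, SE 0.14) and the condensin ATPase SMC4 (log2 -2.13, SE 0.14). In each of these 3 lists untreated replicate 3 was the highest untreated library, 0.24 to 0.25 above the untreated mean on the log2 scale, and the DXR libraries stood between -1.84 and -1.39.

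Sequences upstream of these genes are shown because the CHR element (TTTGAA) and the E2F site (TTTCCCGC, TTTGGCGC, TTTCGCGC or TTTGCCGC) are the documented contact points of the DREAM complex and of E2F factors. Both strands of the 250 bases before each RefSeq gene start (GRCh38.p14) were searched. A gene was counted when any of its entries held a match, and capitals mark the matches, joined where they overlap. Windows of 80 bases around a match are given from 3 mitotic genes (CHR) and 3 replication genes (E2F site), read 5′ to 3′ on the gene's strand.
SMC4, chr3:160399538-160399617, plus strand: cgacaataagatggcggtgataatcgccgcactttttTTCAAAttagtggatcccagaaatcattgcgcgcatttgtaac
CKS2, chr9:89311115-89311194, plus strand: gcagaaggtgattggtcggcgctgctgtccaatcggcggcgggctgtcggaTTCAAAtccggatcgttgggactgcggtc
CDC20, chr1:43358879-43358958, plus strand: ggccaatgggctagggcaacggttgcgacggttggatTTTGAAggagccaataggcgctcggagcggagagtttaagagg
UHRF1, chr19:4909421-4909500, plus strand: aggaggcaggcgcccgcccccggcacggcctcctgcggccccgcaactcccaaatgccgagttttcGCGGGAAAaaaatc
MCM6, chr2:135876486-135876565, minus strand: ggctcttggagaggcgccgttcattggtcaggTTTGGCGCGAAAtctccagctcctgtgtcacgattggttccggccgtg
MCM7, chr7:100101398-100101477, minus strand: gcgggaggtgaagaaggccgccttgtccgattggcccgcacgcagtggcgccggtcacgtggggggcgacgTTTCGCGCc

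The CHR match began 65 bases before the start in CDC20, 75 bases in SMC4 and 29 bases in CKS2. Of the 95 tested genes of these mitotic lists, 78 had a promoter entry, and 33 of these held TTTGAA (42.3%). The share was 12.2% of all 10512 tested genes with an entry and 13.3% of all 35116 entries. None of the 45 replication genes with an entry held it. The E2F site was in 16 of those 45 (35.6%), against 5.55% of tested genes and 2.79% of all entries, and in 8 of the 78 mitotic genes (10.3%). In MCM6 a pair of E2F sites on opposite strands shared bases, and in UHRF1 and MCM7 the match began 14 and 9 bases before the start. Such matches are a description of the sequence and not of binding.

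Double-strand break and crosslink repair genes also fell in their majority, 44 of 53 tested, with 4 higher (median -0.74). FANCD2 of the Fanconi pathway fell by 2.26 (SE 0.17), the checkpoint kinase CHEK1 by 1.42 (SE 0.08) and PRKDC, the kinase of end joining, by 0.66 (SE 0.05). XRCC4, a ligase cofactor of end joining, rose most, at 32.4, 33.7 and 34.6 CPM with DXR against 17.3, 18.9 and 17.9 CPM untreated (log2 0.90, SE 0.07, adjusted p = 7.17e-09). TP53BP1 (log2 0.23, SE 0.06) and the nuclease gene FAN1 (log2 0.29, SE 0.10) rose slightly, FAN1 not without untreated replicate 2 or DXR replicate 1.

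Of 20 tested topoisomerase and DXR handling genes, 8 fell and 3 rose (median -0.10). TOP2A, the cycling topoisomerase II that DXR traps, had 78.1, 104 and 87.0 CPM with DXR and 434, 425 and 562 CPM untreated (log2 -2.40, SE 0.20, adjusted p = 9.47e-09). TOP2B, the form present outside the cell cycle, was at 92.3, 93.7 and 96.0 CPM with DXR and at 129, 117 and 124 CPM untreated (log2 -0.39, SE 0.06, adjusted p = 1.35e-05). In RPKM the level of TOP2A was 14.7 with DXR and 82.8 untreated, and that of TOP2B 15.4 with DXR and 21.5 untreated, so that TOP2A lay above TOP2B untreated and near it with DXR. NQO1, a quinone reductase, stood at 292, 306 and 267 CPM with DXR against 627, 636 and 644 CPM untreated (log2 -1.14, SE 0.07, adjusted p = 1.23e-10). AKR1A1, an aldo-keto reductase that can reduce anthracyclines, rose by 0.58 (SE 0.06). ABCB1, the efflux pump P-glycoprotein, was called at log2 1.52 (SE 0.62, adjusted p = 0.0431) but stayed under 1 CPM in every library and overlapped between groups. Its call was lost with DESeq2 and without untreated replicate 1 or 2 or DXR replicate 2 or 3, and its log2 fold change was 2.41 without untreated replicate 3.

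Nuclear lamina and chromatin architecture genes fell in 19 of 24 tested cases and rose in 1 (median -0.80). LMNB1, which encodes lamin B1, measured 14.5, 15.8 and 12.9 CPM with DXR and 82.2, 79.6 and 108 CPM untreated (log2 -2.64, SE 0.17, adjusted p = 2.27e-10). HMGB2, a chromatin protein, had 17.5, 19.9 and 21.8 CPM with DXR against 82.2, 82.6 and 120.1 CPM untreated (log2 -2.27, SE 0.20, adjusted p = 1.93e-08). No library of one group reached the other in either gene. LBR, the lamin B receptor, fell by 1.37 (SE 0.07), HMGB1 by 1.36 (SE 0.07) and EZH2, the H3K27 methyltransferase, by 2.1 (SE 0.14). SYNE1 (nesprin-1) was the member that rose (log2 0.79, SE 0.13). HMGA1, an architectural factor, was among the 5 genes with the largest loss in RPKM, at 547 RPKM with DXR against 1374 RPKM untreated.

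Replication-dependent histone genes, whose main transcripts lack a poly(A) tail, were mostly below the filter. Of 52 listed genes, which include the histone mRNA binding factor SLBP, 17 were tested, 10 rose and 2 fell (median 1.13). H2AC6 (listed as HIST1H2AC) had 19.8, 21.2 and 20.5 CPM with DXR against 3.71, 3.82 and 3.72 CPM untreated (log2 2.45, SE 0.11, adjusted p = 2.47e-12). H2BC12 (listed as HIST1H2BK) rose by 1.54 (SE 0.07) and H1-2 (listed as HIST1H1C) by 1.35 (SE 0.10). These are counts in poly(A)-selected libraries. The 2 that fell were SLBP, by 0.54 (SE 0.08), and the histone gene H2AC20 (listed as HIST2H2AC), under 1 CPM in all libraries, by 2.76 (SE 0.52).

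**Figure D3:**
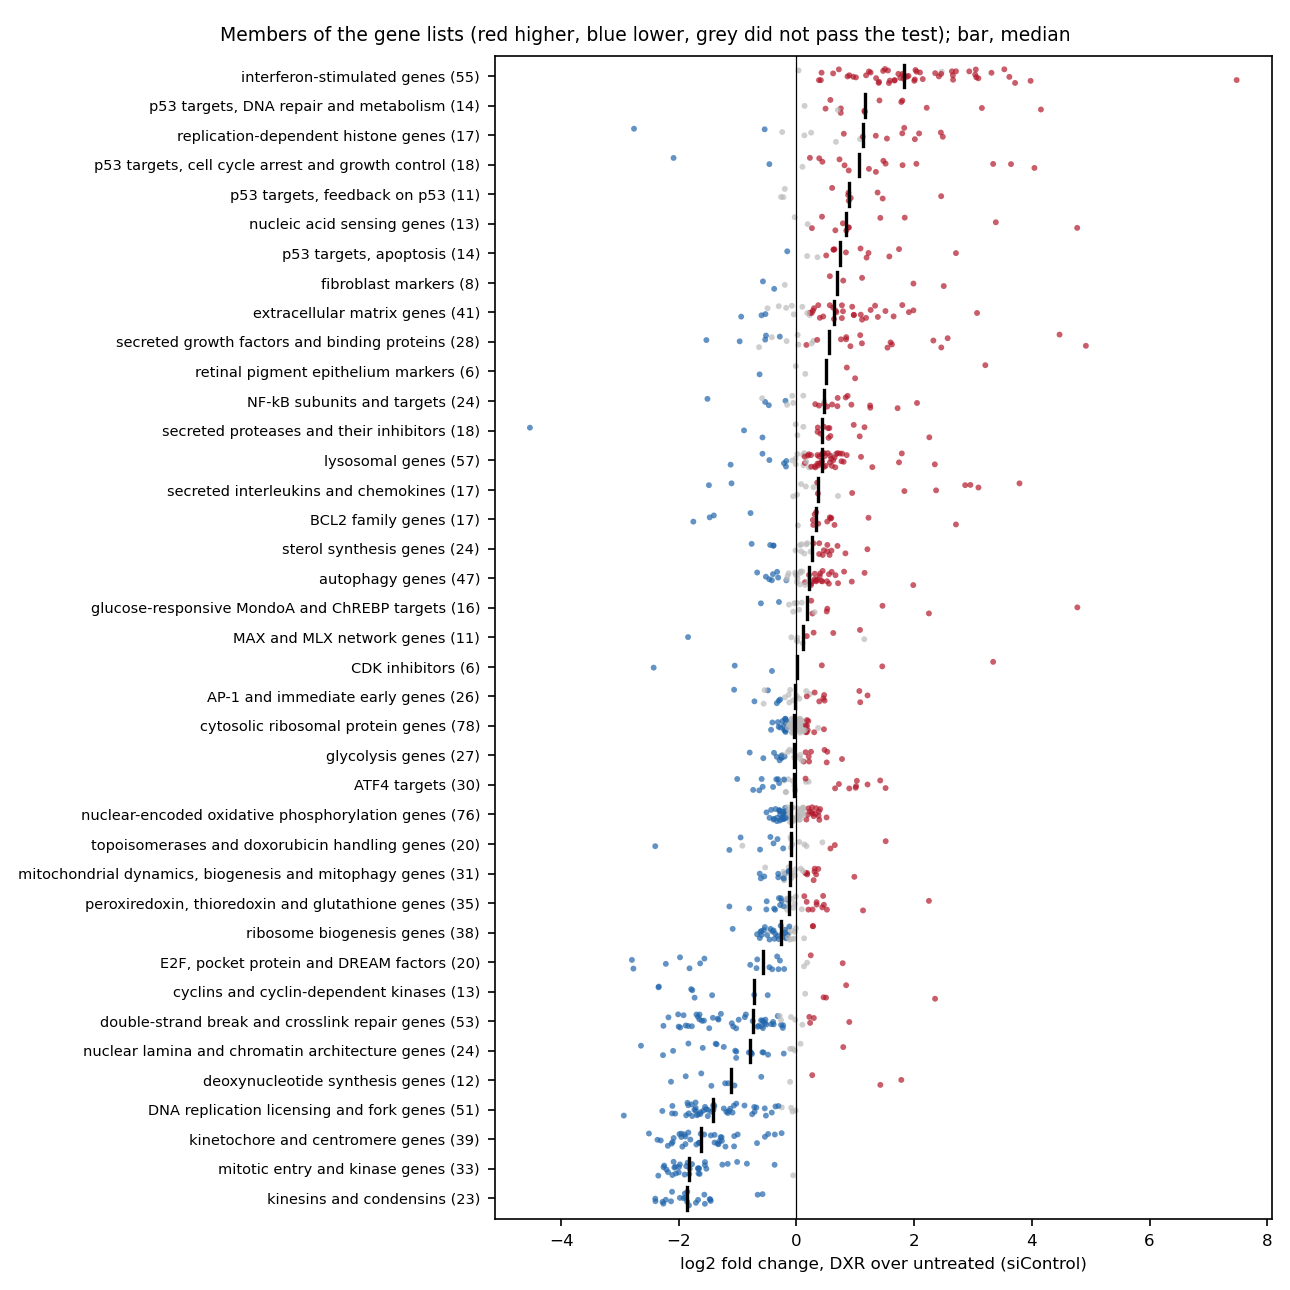
Log2 fold change (x axis, DXR over untreated with siControl) of every tested member in gene lists with at least 5 tested genes (y axis, number tested in parentheses), with black bars at the medians. Medians run from -1.86 for the kinesin and condensin list to 1.83 for interferon-stimulated genes, and the medians for cytosolic ribosome and glycolysis genes are both -0.04.

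Interferon-stimulated genes had the highest median of all lists. Of 55 tested, 53 rose and none fell, 45 of them by at least 2-fold, where 7.82% of all tested genes did. Their median log2 fold change was 1.83. It was 1.82 when genes with 3 or fewer summed counts in a group took a ratio of summed counts with a floor of 3. IFIT2, an antiviral translation inhibitor, stood at 345, 208 and 261 CPM with DXR against 31.5, 21.6 and 17 CPM untreated (log2 3.53, SE 0.21, adjusted p = 1.27e-10). OASL, an OAS family gene, had 38.8, 16.8 and 25.9 CPM with DXR against 2.54, 1.07 and 1.33 CPM untreated (log2 3.98, SE 0.43, adjusted p = 2.06e-07). The DXR and untreated libraries were apart for both. RSAD2 (viperin) had 216, 66 and 201 counts with DXR and 0, 0 and 3 counts untreated, a ratio of 207 with a 95% counting interval of 70.5 to 1009. TAP1 (log2 2.01, SE 0.19) and HLA-B (log2 1.26, SE 0.11) of antigen presentation and STAT2 (log2 1.47, SE 0.14), a subunit of the interferon-activated transcription factor, rose too. The 2 that did not pass were IRF1 (log2 0.04, SE 0.11) and CMPK2 (6 counts with DXR, 1 untreated), named after their values were seen.

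The untreated libraries were not alike in these genes. Averaged over the list, the DXR libraries stood 2.18, 1.59 and 1.92 above the untreated mean on the log2 scale, and the untreated libraries at 0.54, -0.20 and -0.34. Untreated replicate 1 was thus the highest of its group, still below every DXR library. IFIT1 shows it: 725, 522 and 639 CPM with DXR, against 216, 79.4 and 56.1 CPM untreated (log2 2.42, SE 0.43, adjusted p = 7.76e-05). OAS1, which makes the activator of RNase L, had 167, 88.0 and 117 CPM with DXR against 34.8, 11.8 and 9.16 CPM untreated (log2 2.71, SE 0.42, adjusted p = 1.7e-05). Without untreated replicate 1, the log2 fold changes were 3.22 for IFIT1 and 3.58 for OAS1, the list's median was 2.33, and 53 members rose and none fell. The same library held the highest untreated CPM of BST2, LY6E, IGFBP5, CLCA2 and LRRN1 among the largest rises, whose log2 fold changes became 4.35, 4.6, 5.55, 7.08 and 5.04 without it. For LRRN1 the value was 3.21 without untreated replicate 3.

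**Figure D4:**
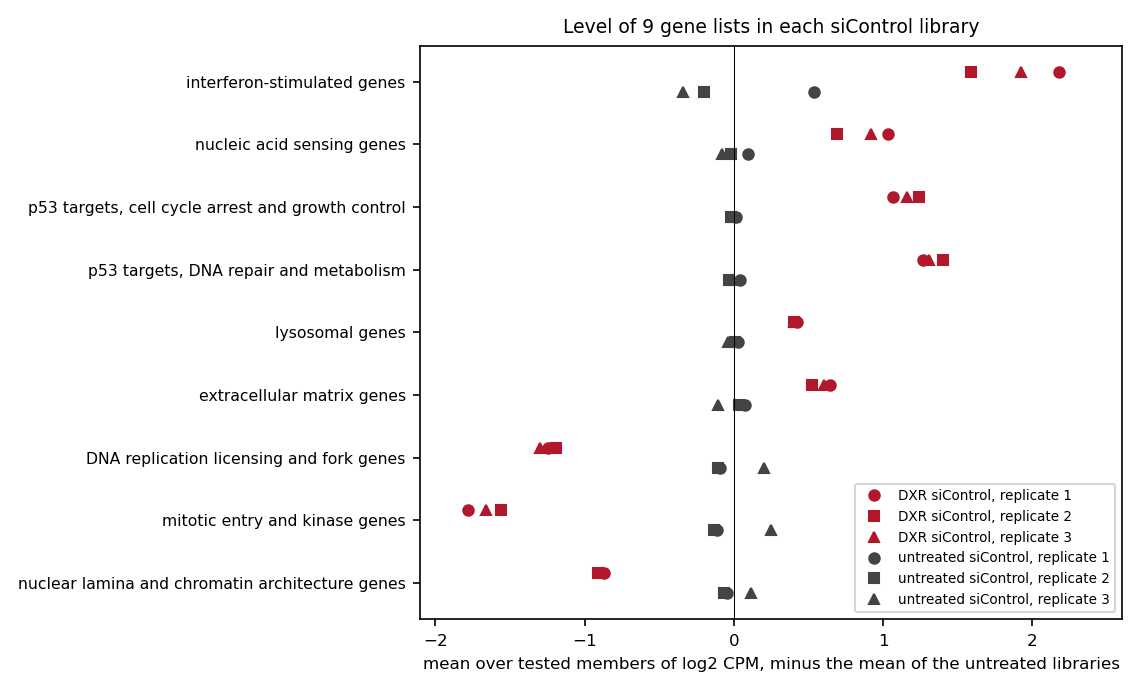
Mean log2 CPM of 9 gene lists in each siControl library (x axis, minus the mean of the 3 untreated libraries), with DXR libraries in red above untreated libraries in grey and a symbol for each replicate number. Untreated replicate 1 stands at 0.54 in the interferon-stimulated genes, apart from the other untreated libraries, and no untreated library reaches a DXR library in any of the 9 lists.

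The interferon-stimulated response element, searched as GAAANNGAAA on both strands, is a contact point of IRF factors. Its matches are shown for TAP1 and IFIT1, whose values are given above, in 80-base windows within the 250 bases before the RefSeq start (GRCh38.p14), read 5′ to 3′ on the gene's strand with the matches in capitals.
TAP1, chr6:32853788-32853867, minus strand: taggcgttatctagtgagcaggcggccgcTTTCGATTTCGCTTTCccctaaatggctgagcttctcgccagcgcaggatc
IFIT1, chr10:89392485-89392564, plus strand: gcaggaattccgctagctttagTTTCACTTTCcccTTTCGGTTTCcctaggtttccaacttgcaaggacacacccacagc

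Both windows held 2 matches, which overlap in TAP1 and stand apart in IFIT1. Of the 44 tested interferon-stimulated genes with a promoter entry, 25 held the element (56.8%). It was found in 3.44% of all tested genes with an entry and in 3.02% of all entries, in 1 of 45 replication genes and in 4 of 78 mitotic genes.

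Genes that sense nucleic acids rose in 11 of 13 tested cases, with none lower (median 0.85). STING1 (listed as TMEM173), the adaptor of cytosolic DNA sensing, had 76.7, 75.2 and 88.7 CPM with DXR against 45.7, 41.4 and 46.6 CPM untreated (log2 0.85, SE 0.10, adjusted p = 1.22e-06). TLR3, a receptor for double-stranded RNA, rose by 1.84 (SE 0.19) and IFI16, a DNA sensor, by 0.89 (SE 0.13). DNASE2, the lysosomal DNase, rose by 0.88 (SE 0.08). Transcripts of interferons themselves were scarce: IFNB1 had 9, 2 and 0 counts with DXR and 0 counts in each untreated library.

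Secreted interleukins and chemokines moved in both directions. Of 17 tested interleukins and chemokines, 9 rose and 2 fell (median 0.36). IL6 had 7.69, 6.45 and 7.58 CPM with DXR against 3.31, 5.35 and 2.89 CPM untreated (log2 0.95, SE 0.19, adjusted p = 0.00032). CCL2, a monocyte chemokine, was at 10.3, 7.32 and 8.06 CPM with DXR and 1.77, 2.24 and 1.05 CPM untreated (log2 2.37, SE 0.28, adjusted p = 7.53e-07). CXCL8 (listed as IL8) went down, at 4.13, 2.51 and 1.25 CPM with DXR against 5.12, 9.88 and 7.29 CPM untreated (log2 -1.49, SE 0.50, adjusted p = 0.0153). Its call was lost with DESeq2 and without untreated replicate 2 or DXR replicate 3. IL1A, at about 1 CPM in both groups, overlapped (log2 0.16, SE 0.27, adjusted p = 0.637), and IL11, a cytokine of the IL-6 family, fell by 1.10 (SE 0.20). In RPKM, IL6 stood at 3.44 with DXR and 1.95 untreated, and CXCL8 at 1.48 with DXR and 4.47 untreated.

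Growth factors and their binding proteins rose in 16 of 28 tested cases and fell in 5 (median 0.55). IGFBP3, which binds insulin-like growth factors, stood at 1235, 1089 and 1153 CPM with DXR against 398, 360 and 371 CPM untreated (log2 1.62, SE 0.07, adjusted p = 3.42e-12). IGFBP7 rose alongside by 1.6 (SE 0.08), and IGFBP5 had 93.0, 46.0 and 45.5 CPM with DXR against 5.18, 2.39 and 0.505 CPM untreated (log2 4.47, SE 0.50, and 5.55 without untreated replicate 1, as above). NRG1, an ERBB ligand, rose by 2.46 (SE 0.16), while VEGFA fell by 0.97 (SE 0.15). Of 18 proteases and inhibitors, 12 rose and 3 fell (median 0.44). PLAT, tissue plasminogen activator, rose by 1.16 (SE 0.09). MMP1, a collagenase, had 1 count in the DXR libraries together, and its ratio of DXR to untreated was 0.0322 with a 95% counting interval of 0.000795 to 0.19.

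Extracellular matrix genes rose in 30 of 41 tested cases, 3 fell and the median was 0.64. FN1 (fibronectin), 1 of the 5 genes with the largest gain in RPKM, stood at 3982 RPKM with DXR and 2162 RPKM untreated (log2 0.97, SE 0.13, adjusted p = 4.07e-06). SPARC, a collagen-binding glycoprotein, had 5688, 5178 and 5692 CPM with DXR against 2554, 2511 and 2234 CPM untreated (log2 1.18, SE 0.07, adjusted p = 5.61e-11). Among type IV collagens of the basement membrane, COL4A4 stood at 105, 72.1 and 75.4 CPM with DXR and at 6.86, 4.99 and 2.89 CPM untreated (log2 4.09, SE 0.25), and COL4A3 and COL4A5 rose by 3.85 (SE 0.26) and 1.38 (SE 0.08). COL12A1 (log2 -0.94, SE 0.07), NID1 (log2 -0.59, SE 0.07) and COL16A1 (log2 -0.53, SE 0.21) fell, COL16A1 not without untreated replicate 2 or DXR replicate 1 or 2. Fibroblast markers rose beside the matrix genes in 5 of 8 tested cases and fell in 2, and COL1A1, COL1A2 and COL3A1 are counted in both lists. Their summed level was 833 to 937 CPM with DXR and 531 to 611 CPM untreated, with COL1A1 at 252, 183 and 198 CPM with DXR against 109, 112 and 71.5 CPM untreated. COL3A1 and LUM had at most 11 counts in a library, and the part of these markers in the matrix result was not tested.

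Among NF-kB subunits and targets 14 of 24 rose and 4 fell (median 0.47). The subunit NFKB2 (log2 0.93, SE 0.08), the caspase-8 regulator CFLAR (log2 1.25, SE 0.10) and the inhibitor TNFAIP3 (log2 1.25, SE 0.13) rose, and TNFAIP6, a hyaluronan-binding protein, fell (log2 -1.51, SE 0.29). AP-1 and immediate early genes were split, with 9 higher and 6 lower of 26 (34.6% and 23.1%, median -0.03). Of all tested genes 28.1% were higher and 28.6% lower, so these shares were near those of all genes. ATF3, a stress-induced factor, had 6.83, 6.91 and 6.66 CPM with DXR against 2.94, 3.06 and 2.85 CPM untreated (log2 1.21, SE 0.18, adjusted p = 1.26e-05). The AP-1 subunits FOS (log2 -1.06, SE 0.26) and FOSL1 (log2 -0.71, SE 0.13) fell.

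Lysosomal genes rose in 41 of 57 tested cases and fell in 6 (median 0.43). FUCA1, alpha-L-fucosidase, had 84.9, 79.0 and 80.8 CPM with DXR against 25.7, 25.3 and 19.9 CPM untreated (log2 1.79, SE 0.08, adjusted p = 2.16e-12). GAA, acid alpha-glucosidase, rose by 1.74 (SE 0.10) and the membrane protein LAMP1 by 0.68 (SE 0.05), while GUSB, beta-glucuronidase, fell by 1.12 (SE 0.07). Autophagy genes rose in 25 of 47 cases and fell in 8 (median 0.21). DRAM1, a p53-induced lysosomal regulator of autophagy, rose most, at 68.6, 70.3 and 72.1 CPM with DXR against 17.7, 15.7 and 19.7 CPM untreated (log2 1.98, SE 0.07, adjusted p = 2.15e-13). GABARAPL1 (log2 1.16, SE 0.09) and MAP1LC3B (log2 0.55, SE 0.05), which coat autophagosomes, rose, and ATG3, which conjugates them to lipid, fell by 0.52 (SE 0.06). RUBCN (listed as KIAA0226), which encodes Rubicon, a negative regulator of autophagy, had 49.8, 49.0 and 53.7 CPM with DXR against 33.0, 34.3 and 36.8 CPM untreated (log2 0.55, SE 0.09, adjusted p = 4.5e-05).

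MLXIP and MLX, the genes of MondoA and its partner Mlx, did not pass the test with siControl. MLXIP measured 64.0, 63.2 and 66.6 CPM with DXR and 69.5, 72.9 and 63.7 CPM untreated (log2 -0.09, SE 0.09, adjusted p = 0.406), and MLX 26.4, 26.8 and 26.4 CPM with DXR and 25.8, 27.4 and 25.7 CPM untreated (log2 0.01, SE 0.06, adjusted p = 0.863). Both overlapped between groups. TXNIP, the thioredoxin-binding arrestin that MondoA drives, stood at 52.5, 66.7 and 69.8 CPM with DXR against 10.9, 10.9 and 17.6 CPM untreated (log2 2.25, SE 0.21, adjusted p = 2.45e-08). Of 16 tested glucose-responsive targets 7 rose and 2 fell (43.8% and 12.5%, against 28.1% and 28.6% of all tested genes, median 0.17). The arrestin gene ARRDC4 rose from few reads, and its 3 untreated counts, all in replicate 1, gave a ratio of DXR to untreated of 31.3 with a 95% counting interval of 10.3 to 155. Its relatives ARRDC3 (log2 -0.60, SE 0.11) and ARRDC2 (log2 -0.30, SE 0.10) fell, ARRDC2 not without untreated replicate 3 or DXR replicate 1 or 3. In the MAX network 4 of 11 rose (36.4%, against 28.1% of all tested genes) and 1 fell. MXI1, a MYC antagonist, was at log2 1.08 (SE 0.13) and MXD3, of the same antagonist family, at -1.84 (SE 0.28). MYC was called at log2 0.17 (SE 0.07, adjusted p = 0.043) and did not pass without untreated replicate 2 or 3, DXR replicate 2 or 3, or the filter on low counts.

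Of 35 tested peroxiredoxin, thioredoxin and glutathione genes, 12 rose and 12 fell (34.3% each, median -0.12). Of all tested genes 28.1% rose and 28.6% fell, so these shares were near those of all genes. PRDX3, the mitochondrial peroxiredoxin, had 194, 197 and 192 CPM with DXR against 236, 237 and 244 CPM untreated (log2 -0.30, SE 0.05, adjusted p = 4.78e-05). PRDX4 of the endoplasmic reticulum (log2 0.52, SE 0.06) and PRDX5 (log2 0.47, SE 0.07) rose. Glutathione reductase GSR (log2 -0.80, SE 0.07) and thioredoxin TXN (log2 -0.51, SE 0.05) fell. Genes of mitochondrial dynamics were similarly divided, 9 higher and 10 lower of 31 (median -0.12), with MIEF2, a fission adaptor, at log2 0.98 (SE 0.06) and TFAM, the mitochondrial genome packaging factor, at -0.61 (SE 0.07).

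The glycolysis and oxidative phosphorylation lists had medians near 0, and each metabolic list had members on both sides. Of 27 glycolysis genes 9 rose and 9 fell (33.3% each, median -0.04), near the 28.1% and 28.6% of all tested genes. ENO1, enolase 1, measured 1514, 1611 and 1549 CPM with DXR and 2562, 2721 and 2827 CPM untreated (log2 -0.80, SE 0.06, adjusted p = 9.24e-10), and PFKFB3, which makes an activator of glycolysis, rose by 0.52 (SE 0.08). Nuclear-encoded genes of oxidative phosphorylation had 15 higher and 28 lower of 76 (19.7% and 36.8%, median -0.09). The complex II subunit SDHA was at log2 -0.46 (SE 0.05) and NDUFA4 at 0.51 (SE 0.06). Sterol synthesis genes had 12 higher and 4 lower of 24 (50.0% and 16.7%, median 0.26). Averaged over this list, DXR replicate 2 stood 0.12 and untreated replicate 2 0.11 above the untreated mean on the log2 scale. TM7SF2, a sterol reductase, rose (log2 1.20, SE 0.14), and SREBF1, a regulator of lipid synthesis, fell (log2 -0.76, SE 0.16).

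Targets of the amino acid stress factor ATF4 had 10 higher and 10 lower of 30 (33.3% each, median -0.05). These shares were near the 28.1% and 28.6% of all tested genes. SESN2, an inhibitor of mTORC1 signalling that p53 also drives, had 48.2, 56.8 and 53.5 CPM with DXR against 16.1, 20.6 and 19.2 CPM untreated (log2 1.51, SE 0.09, adjusted p = 9.79e-11). SLC7A5 and SLC3A2, the subunits of an amino acid transporter, rose by 1.01 (SE 0.14) and 0.90 (SE 0.06), while PHGDH of serine synthesis fell by 1.01 (SE 0.10). ATF4 itself did not pass (log2 0.16, adjusted p = 0.0579). Ribosome biogenesis genes fell in 25 of 38 cases and rose in 2 (median -0.26), with FBL (fibrillarin) at 47.9, 49.9 and 47.5 CPM with DXR against 97.1, 103 and 108 CPM untreated (log2 -1.08, SE 0.06, adjusted p = 4.23e-11). Cytosolic ribosomal protein genes had 9 higher and 19 lower of 78 (11.5% and 24.4%, median -0.04) and stayed within 0.47 of 0. These counts hung on single libraries: 3 rose without untreated replicate 1 or without DXR replicate 2 or 3, 5 rose and 12 fell without untreated replicate 3, and 8 fell without untreated replicate 2 or DXR replicate 1. With upper-quartile scaling 10 rose and 11 fell.

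Among called, non-overlapping genes whose higher group averaged 5 CPM or more, the largest rises by fold held genes outside these groups. CLCA2, a p53-responsive membrane protein, had 10.9, 13 and 12.8 CPM with DXR against 0.368, 0.0509 and 0.108 CPM untreated (log2 5.94, SE 0.34, adjusted p = 5.61e-11, and 7.08 without untreated replicate 1, as above). LRATD1 (listed as FAM84A) rose by 4.2 (SE 0.36). In the other direction SOX11, a developmental transcription factor, had the largest fall of these genes, at 0.357, 0.256 and 0.192 CPM with DXR against 5.12, 5.40 and 6.96 CPM untreated (log2 -4.42, SE 0.26, adjusted p = 8.65e-11). ADGRG1 (listed as GPR56), an adhesion receptor, fell by 2.71 (SE 0.20) and TRPV2, a cation channel, by 2.74 (SE 0.35). The 5 largest losses in RPKM held abundant genes with small folds, such as GAPDH (7184 RPKM with DXR, 9125 RPKM untreated; log2 -0.25, SE 0.06) and ACTB (3399 RPKM with DXR, 4405 RPKM untreated; log2 -0.28, SE 0.08). They also held HMGA1 (above) and S100A6, a calcium-binding protein, which fell more than 2-fold, S100A6 at 677 RPKM with DXR and 1585 RPKM untreated (log2 -1.14, SE 0.10).

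Among 149 tested long intergenic noncoding RNA genes 42 rose (28.2%, against 28.1% of all tested genes) and 20 fell (13.4%, against 28.6%). The share of rises was thus that of all genes, the share of falls was smaller, and the median was 0.17. DUBR (listed as LINC00883) had 26.1, 31.8 and 31.8 CPM with DXR against 15.9, 13 and 12 CPM untreated (log2 1.13, SE 0.10, adjusted p = 2.14e-08). LINC00641 fell by 1.51 (SE 0.13). TMPO-AS1 fell by 2.72 (SE 0.31) and ZMIZ1-AS1 by 2.49 (SE 0.27), and as antisense genes both are uncertain, since the strand setting of the counting is not given in the sources used here.

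The response with siControl was then set beside the responses of knocked-down cells, each measured in its own DXR and untreated libraries. The share of tested genes called was 54.2% with siMondoA and 62.1% with siMlx, against 56.7% with siControl. Of the genes that rose with siControl, 2743 also rose with siMondoA, which is 76.6% of the siMondoA rises and 71.4% of the siControl rises. The same count was 3052 with siMlx (72.2% of the siMlx rises, 79.5% of the siControl rises). Falls were shared by 2778 genes with siMondoA (72.6% and 71.0%) and by 3131 with siMlx (73.3% and 80%). A difference of the DXR effect itself passed for 1384 genes with siMondoA (10.1%) and 1675 with siMlx (12.2%), and both of these differences used the same siControl libraries. The first count was 918 without untreated siMondoA replicate 1.

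CDKN1A rose less in both knockdowns. Its log2 fold change was 2.65 with siMondoA and 2.55 with siMlx, against 3.34 with siControl, and the differences were -0.70 (SE 0.11, adjusted p = 0.000379) and -0.79 (SE 0.11, adjusted p = 6.64e-05). Both its levels differed: with DXR it averaged 3133 ± 119 CPM with siMondoA, 3244 ± 254 CPM with siMlx and 2312 ± 227 CPM with siControl, and untreated 500.5 ± 41 CPM, 553 ± 26 CPM and 228 ± 11 CPM in the same order of siRNAs (SD, n = 3 each). MCM2 fell less with siMondoA (log2 -0.69) than with siControl (log2 -1.84), a difference of 1.15 (SE 0.25, adjusted p = 0.00618). Untreated MCM2 averaged 22.0 ± 7.9 CPM with siMondoA and 81.1 ± 12 CPM with siControl (SD, n = 3 each). LMNB1 fell by 3.72 with siMlx and by 2.64 with siControl, a difference of -1.08 (SE 0.24, adjusted p = 0.00627).

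IFIT1 rose more with siMlx (log2 5.38) than with siControl (log2 2.42), a difference of 2.96 (SE 0.79, adjusted p = 0.0177), although its level with DXR was lower, at 97.9 ± 61 CPM with siMlx and 629 ± 102 CPM with siControl (SD, n = 3 each). Its untreated level was 2.35 ± 0.18 CPM with siMlx and 117 ± 86 CPM with siControl (SD, n = 3 each). The difference did not pass without untreated siMlx replicate 2. Over the interferon-stimulated list 55 genes rose with siMondoA and 48 with siMlx, against 53 with siControl, with medians of 2.86, 1.92 and 1.83 in that order, and 1 gene fell with siMlx. The siControl median was 2.33 without untreated replicate 1, above that of siMlx. For the 51 replication genes the falls numbered 38, 50 and 47 and the medians were -0.61, -1.79 and -1.42 in the same order. TXNIP rose with every siRNA, and its log2 fold change of 1.83 with siMondoA and 2.11 with siMlx did not pass a difference from 2.25 with siControl (adjusted p = 0.641 and 0.869). Its level with DXR was 4.28 ± 0.51 CPM with siMondoA, 9.44 ± 3.5 CPM with siMlx and 63.0 ± 9.2 CPM with siControl (SD, n = 3 each). The targeted genes were low in their own knockdowns, with untreated MLXIP at 3.85 ± 0.65 CPM with siMondoA and 68.7 ± 4.6 CPM with siControl, and untreated MLX at 7.0 ± 0.18 CPM with siMlx and 26.3 ± 0.95 CPM with siControl (SD, n = 3 each).

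**Figure D5:**
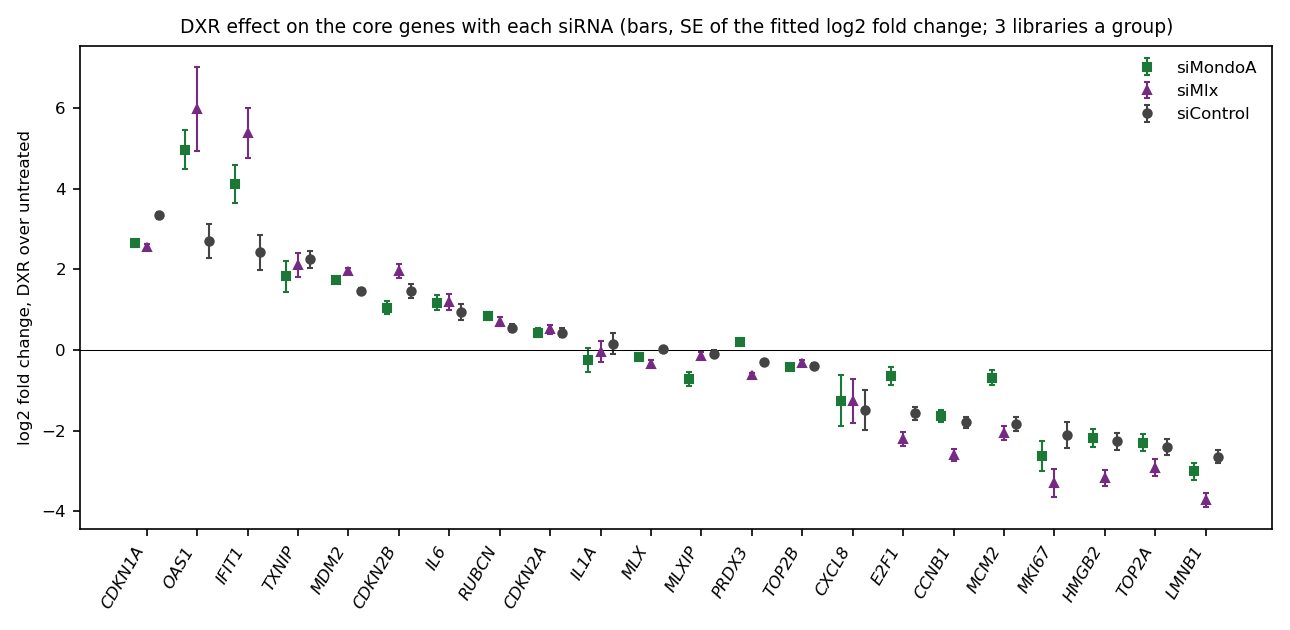
Log2 fold change of DXR over untreated (y axis, bars are SE of the fit, 3 libraries a group) for core genes (x axis) with siMondoA, siMlx and siControl. CDKN1A is highest with siControl at 3.34, IFIT1 and OAS1 are lowest with siControl at 2.42 and 2.71, and MCM2 and E2F1 lie closest to 0 with siMondoA at -0.69 and -0.65.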

How the data were processed

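RNA of RPE-1 cells, grown in DMEM with serum, was sequenced from TruSeq Stranded mRNA libraries, per the labels' protocols. Per the submitters' processing notes, bcl2fastq and TopHat2 2.1.1 were used with GRCh38. No source used here gives the counting program, annotation or strand setting, so overlapping genes are uncertain. The authors deposited a table of gene counts, which was tested, and a table of RPKM, which was not. RPKM served to compare levels between genes, to show some genes in both groups, and to pick the 5 largest differences in each direction. The RPKM values matched the counts divided by a whole gene length (within 0.01 bases) in 107832 of 107835 values of the 6 siControl libraries.

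Counts of all 18 libraries in 6 groups of 3 were fitted with the edgeR 4.0.16 quasi-likelihood test (R 4.3.3, TMM scaling, filterByExpr), with p-values adjusted by the Benjamini-Hochberg method over 13676 genes. Total counts over the 18 libraries ran between 15503423 and 29219280. The shared fit left 12 residual degrees of freedom, and the biological coefficient of variation was 7.42%. The script was tested on simulated data. Differences between siRNAs were interaction contrasts. Replicates of a group differed by more than sampling noise (chi-square per degree of freedom at least 3.749). For ratios of summed counts the exact 95% interval covers counting error only.

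Genes were named by rule: the core genes, the 12 largest log2 fold changes in each direction among called genes whose groups did not overlap and whose higher group averaged at least 5 CPM, the 5 largest RPKM differences in each direction, and the list members with the smallest p (up to 5 in the main direction and 3 in the other). Of 1222 list members 1211 were listed. The members and lists were chosen with earlier results of these data known, and no set test was run. Some genes of the rule are not reported here. Alternatives were other scalings, filters, DESeq2 1.42.0, a replicate block, the compared groups alone and each library left out.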

Additional observations from a re-analysis of the deposited data

Results flagged for a closer look

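For 14 core gene effects the change with DXR differed between a knockdown and siControl by the interaction test of edgeR (adjusted p under 0.05), with the difference given as knockdown minus siControl on the log2 scale. CDKN1A, the p21 gene, differed by -0.6956 with siMondoA and by -0.7895 with siMlx. MDM2, the p53 ligase gene, differed by 0.4855 with siMlx, where its log2 fold change was 1.95 against 1.46 with siControl. PRDX3, the mitochondrial peroxiredoxin, differed by 0.5021 with siMondoA and by -0.3099 with siMlx, and rose with siMondoA (log2 0.20) where it fell with siMlx (log2 -0.61) and siControl (log2 -0.30).

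Among proliferation genes, CCNB1 (cyclin B1) differed by -0.8093, LMNB1 (lamin B1) by -1.0809 and HMGB2 by -0.9032 with siMlx, where each fell more. E2F1 differed by 0.9138 and MCM2 by 1.1501 with siMondoA, where each fell less and where the untreated level was lower (E2F1 5.68 ± 1.9 CPM with siMondoA and 29.9 ± 4.6 CPM with siControl, SD, n = 3 each). The interferon-stimulated IFIT1 differed by 2.9566 with siMlx and OAS1 by 2.2577 with siMondoA.

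The targeted genes differed in their own knockdowns too, MLXIP by -0.6327 with siMondoA and MLX by -0.3608 with siMlx, at levels that the siRNA had already lowered.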

How the results depend on the processing

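Over the alternatives run, the siControl count of 7756 called genes ranged from 6909 to 7241 when single libraries were left out, and was 7465 with DESeq2, 7784 without the filter on low counts and 7461 with the 6 libraries fitted alone. Another scaling moved the median of all genes by at most 0.02. Of the values checked for named genes, 3925 kept direction and side of the threshold, 43 lost the call and 4 reversed, all of the last in genes that had not passed: IL1A without DXR replicate 2 (-0.0287, with up to 0.3558 when other single libraries were left out), and MLX without the filter on low counts (-0.0159), without untreated replicate 3 (-0.0037) and without DXR replicate 2 (-0.0045, with up to 0.041 when other single libraries were left out). For differences between siRNAs, 1384 genes with siMondoA became 918 to 1384 and 1675 with siMlx became 1220 to 1794 when single libraries were left out, and the cause was not tested. Of the 14 core differences, those of E2F1, HMGB2, OAS1, MLXIP, MLX and IFIT1 lost their call under at least 1 alternative. The OAS1 difference was 1.38 without untreated siControl replicate 1 (adjusted p = 0.149).

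Replicate numbers were not taken to pair the libraries, since with no siRNA did every same-numbered DXR and untreated pair deviate with a correlation over 0.1: the values were 0.205, -0.0545 and 0.134 with siMondoA, 0.0587, -0.0859 and 0.0214 with siMlx, and 0.147, -0.00046 and 0.0709 with siControl. Library names end in the same tags in every group, a tag to each replicate number. Different-numbered pairs had values from -0.215 (with siMondoA) to 0.161 (with siMlx). Whether same-numbered libraries were handled together is not in the labels, and these correlations do not settle it. With the replicate number as a block, 8056 genes were called with siControl, 7698 with siMondoA and 8748 with siMlx, and 1818 and 2125 differences with siMondoA and siMlx. Each of these counts was higher than in the main fit, which leaves out any effect shared by same-numbered libraries. Low counts limit genes such as RSAD2, ARRDC4 and GDF15, whose ratios are given with counting intervals.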

Other observations

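Mitochondrially encoded tRNA and ribosomal RNA genes, grouped after their values were seen, stood higher with DXR in these poly(A)-selected libraries. Of 22 listed tRNA genes 16 were tested, 14 rose and none fell, with a median log2 fold change of 1.29, where 28.1% of all tested genes rose. Some were under 1 CPM in both groups, such as TRNI (means of 0.549 CPM with DXR and 0.345 CPM untreated). Others were low only untreated, such as TRND (means of 1.51 CPM with DXR and 0.214 CPM untreated). Genes this low can pass the filter on low counts through the libraries where they are high. The count of rises therefore does not describe all 22 genes. The summed level of the tRNA genes was 524, 535 and 556 CPM with DXR and 194, 201 and 221 CPM untreated. TRNC had 110, 128 and 123 CPM with DXR against 32.2, 30.8 and 34.2 CPM untreated (log2 1.89, SE 0.10), and the ribosomal RNR2 had 2142, 1994 and 2280 CPM with DXR against 945, 1001 and 1003 CPM untreated (log2 1.12, SE 0.09). The rise was called for 11 of the tRNA genes with siMondoA and for 12 with siMlx. Mitochondrially encoded protein-coding genes were not analysed here.

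Clustered protocadherin beta genes are neuronal adhesion genes of 1 locus and were also grouped after their values were seen. Of 18 listed, 15 were tested and 14 rose, all by at least 2-fold (median 2.18). Their summed level was 57.5, 47.2 and 40.0 CPM with DXR and 10.9, 8.14 and 8.15 CPM untreated. In the neighbouring gamma cluster 9 of 17 tested genes rose and 1 fell (median 0.50). In the alpha cluster only 4 of 15 listed genes were tested, and these rose (median 1.87). Untreated means were low, at 0.0674 to 0.562 CPM for these alpha genes and 0.0927 to 1.79 CPM for the tested beta genes. Genes this low can pass the filter on low counts through the libraries where they are high, so the counts of rises do not describe the whole clusters. These paralogs share sequence, and how reads were divided among them is not given in the sources used here. Other families, also grouped after their values were seen, are set against 28.6% of all tested genes lower and 28.1% higher. All 8 subunits of the HAUS augmin complex, which nucleates spindle microtubules, fell (median -0.77), as did 17 of 19 nucleoporin genes (median -0.54). With siMondoA 4 of the HAUS genes fell, and 10 nucleoporin genes fell and 2 rose. With siMlx 8 HAUS and 18 nucleoporin genes fell. All 6 type IV collagen genes rose (median 1.52), and 5 rose with siMondoA and 5 with siMlx.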
